A study of Homo sapiens with 6 samples.

Results

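The genes described here belong to mitosis and to the G2 phase that comes before it. They were chosen by symbol among protein-coding genes: kinesins (KIF followed by a number), centromere proteins (CENP), Aurora (AURK) and Polo-like (PLK) kinases, BUB checkpoint proteins, A- and B-type cyclins, NIMA-related kinases (NEK), the CDCA genes, and PTTG1, CDC20, CDC25B, CDC25C, CDK1, TTK, TPX2, TOP2A, MKI67 and MAD2L1. This gave 96 measured genes out of 14884 named genes, of which 11916 were protein-coding. Another 13 genes of the gene table fit the symbols and were not analysed here, among them TPX2, CENPE and CENPF. The symbols also take in genes with no part in mitosis. Of the kinesins measured, 14 are motors or microtubule depolymerases of the mitotic spindle and 25 are mostly transport or ciliary motors. The members were therefore read as 36 genes whose transcripts are known to peak in G2 and mitosis (the G2/M-peaking members) and 60 others.

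All samples were MOLM14 cells, an established human acute myeloid leukaemia line that carries KMT2A-MLLT3 and an activating FLT3 duplication. One group of 3 arrays received siRNA against ATF4 (siATF4) and the other group of 3 arrays received a non-targeting control siRNA (siCTRL). Both siRNAs were given at 70 nM by electroporation, so every sample was transfected, and the time between transfection and harvest is not given in the sources used here. ATF4 is the transcription factor through which cells answer amino acid shortage and other stress, and its mRNA was the target of the knockdown. Levels are array signals read as log2, so a difference of 1 is 2-fold. The labels number the replicates 1, 2 and 3 in both groups and call them technical, so the spread behind each p-value may be that of repeat handling of 1 culture.

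In the cell cycle, cyclin B and CDK1 drive entry into mitosis once CDC25 phosphatases remove an inhibitory phosphate. Aurora and Polo-like kinases then build the spindle, kinesins move chromosomes and spindle poles, and the kinetochore on the centromere holds back anaphase through the BUB and MAD checkpoint proteins until CDC20 activates the anaphase-promoting complex. Many of these transcripts peak in G2 and mitosis, under the MuvB complex with B-MYB (MYBL2) and FOXM1. Their level in a bulk sample therefore depends in part on the share of cells in that part of the cycle. In bulk samples, fewer cells in G2 or mitosis and less RNA per cell cannot be told apart.

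ATF4 itself had log2 levels of 7.72, 7.88 and 8.14 with siATF4 and 8.67, 8.64 and 8.85 with siCTRL (replicates 1, 2 and 3), lower with siATF4 within every number. The difference was -0.80 (SE 0.14, unadjusted p = 0.000823, adjusted p = 1.0 in limma). Of the myeloid markers 9 of 15 were measured. FLT3 lay between 8.19 and 9.67 and the lysozyme gene LYZ between 8.33 and 10.87, while CD14 lay between 3.22 and 4.18, near the array medians of 3.88 to 3.96. Their mean was 7.33 to 7.91 on the siATF4 arrays and 7.32 to 8.12 on the siCTRL arrays. Of 10 markers each, 3 T and B cell, 5 erythroid or megakaryocytic and 5 epithelial or fibroblast genes were measured. Their array means lay between 3.98 and 4.81, 4.14 and 4.30, and 4.23 and 4.60. PAX5 (up to 6.12) and KRT18 (up to 7.40) were the brightest of these relative to the array medians. Both arrays numbered 1 stood apart in some genes. On siATF4 replicate 1 the myeloperoxidase gene MPO read 5.58, against 8.45 to 10.45 on the others. The interferon-induced IFITM1 read 4.44 there, against 7.86 to 8.29. On siCTRL replicate 1 the interferon-induced IFIT1 read 6.18, against 3.02 to 4.79 on the others. The mean of 20 interferon genes was 6.59 there, against 4.76 to 5.84. For several members whose difference changed without siATF4 replicate 1, both values are given.

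Transcription of many G2/M genes runs through a short element near the start, the cell cycle genes homology region (CHR, letters TTTGAA). It often lies beside CCAAT boxes (letters CCAAT) bound by NF-Y. RefSeq promoter windows (GRCh38.p14) were matched for 81 of the 96 members. They are shown for 6 G2/M-peaking members that hold both motifs close to the start, and for KIF1C, the member with the lowest unadjusted p between siRNAs. Each line gives the 100 bases before the start, 5′ to 3′ on the gene's strand, with both motifs in capitals wherever they lie on either strand (the reverse of CCAAT reads ATTGG).
CCNB2, chr15:59105046-59105145, plus strand: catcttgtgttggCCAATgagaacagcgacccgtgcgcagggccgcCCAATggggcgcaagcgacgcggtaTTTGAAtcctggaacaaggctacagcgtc
PLK1, chr16:23678789-23678888, plus strand: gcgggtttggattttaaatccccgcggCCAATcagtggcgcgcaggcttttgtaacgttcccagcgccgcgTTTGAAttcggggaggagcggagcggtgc
CDC20, chr1:43358881-43358980, plus strand: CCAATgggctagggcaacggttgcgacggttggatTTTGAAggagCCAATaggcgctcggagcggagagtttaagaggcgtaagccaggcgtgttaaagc
CDK1, chr10:60778378-60778477, plus strand: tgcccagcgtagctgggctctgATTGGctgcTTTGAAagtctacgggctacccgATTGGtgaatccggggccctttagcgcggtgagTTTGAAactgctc
KIF23, chr15:69414249-69414348, plus strand: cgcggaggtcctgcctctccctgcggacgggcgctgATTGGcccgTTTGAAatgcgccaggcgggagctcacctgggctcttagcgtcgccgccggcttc
MKI67, chr10:128126424-128126523, minus strand: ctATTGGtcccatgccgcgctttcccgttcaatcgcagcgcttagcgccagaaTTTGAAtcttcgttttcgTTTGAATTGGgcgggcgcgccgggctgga
KIF1C, chr17:4997850-4997949, plus strand: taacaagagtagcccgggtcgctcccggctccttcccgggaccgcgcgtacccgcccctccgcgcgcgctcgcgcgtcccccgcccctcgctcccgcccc

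In the CCNB2 window the CHR starts 29 bases before the start and 2 CCAAT boxes lie upstream of it. The KIF1C window holds neither motif in these letters. CDK1 also has another start, not shown, whose 100 bases (chr10:60778231-60778330) hold neither motif. In MKI67 the second CHR and a reversed CCAAT share 1 base. Over the 250 bases before the start, 38.1% of 42 windows of G2/M-peaking members held a CHR on either strand, against 4.41% of 68 windows of the other members and 13.3% of all 35116 windows. CCAAT was found in 76.2%, 36.8% and 32.0% of them, and both motifs together in 33.3%, 4.41% and 4.69%. Some genes have more than 1 start, and windows of nearby starts overlap, so the same match can count more than once. The core letters of the element that ATF4 binds with C/EBP proteins, TGATGNAA, were found in 4.76%, 2.94% and 3.14%, that is in windows of CDC25C, PLK3 and CENPW among the members. A match is a description of letters and not a binding site.

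**Figure D1:**
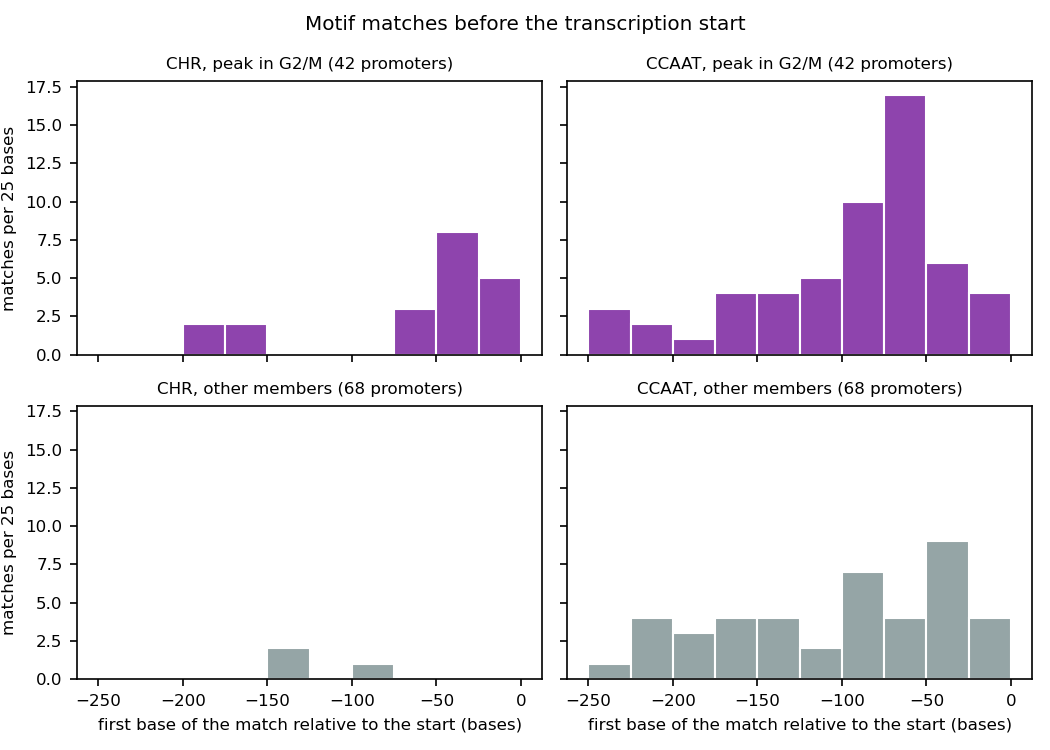
Matches of CHR (left) and CCAAT (right) on either strand in the 250 bases before the transcription start (x axis, bases; y axis, matches per 25 bases), for the 42 windows of G2/M-peaking members (top) and the 68 windows of other members (bottom). CHR was found in 38.1% of the upper windows and 4.41% of the lower ones.

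No member differed between the siRNAs past the adjusted threshold. In limma, 0 of the 96 members had an adjusted p below 0.05 (0.0% of all 14884 genes did), with or without the replicate number as a block. At an unadjusted p below 0.05 there was 1 member, KIF1C, where 1.46% of all genes lay at that level. With the replicate block there were 4, namely KIF1C, KIF3B, PLK2 and PTTG1, where 3.12% of all genes did. The median difference, siATF4 minus siCTRL, was 0.04 for the 36 G2/M-peaking members, 0.07 for the other 60 and 0.01 for all genes. Differences ran from -0.24 (MKI67) to 0.38 (PLK1) in the first set and from -0.30 (KIF21A) to 0.62 (KIF13A) in the second. All siATF4 arrays lay above all siCTRL arrays for 2 members (KIF1C and NEK9), where 3.3% of all genes did so, and below them for 1 (BUB3), where 2.59% of all genes did. As shares of the 96, the count at an unadjusted p below 0.05 and both counts without overlap are below the background, and the count with the replicate block is slightly above it.

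The G2/M transcripts instead varied together from array to array within each group. The mean log2 level of the 36 G2/M-peaking members was 7.59, 6.77 and 8.05 on siATF4 replicates 1, 2 and 3 and 7.15, 7.05 and 8.02 on siCTRL replicates 1, 2 and 3. Both arrays numbered 3 were the highest and siATF4 replicate 2 was the lowest, and the groups overlapped fully. The group means were 7.47 ± 0.65 and 7.41 ± 0.54 (SD, n = 3 each), so the difference of 0.07 is below the spread within either group. The median SD of a G2/M-peaking member within a group was 0.61, against 0.27 for the other members, 0.18 for all genes and 0.23 for all genes with a mean level of 5 or more. A range of at least 1 over the 6 arrays was seen for 32 of the 36, or 88.9%, against 12.2% of all genes and 18.7% of those at a level of 5 or more. Such spread was not particular to these members. The median SD was 0.91 for 20 interferon genes, 0.64 for 9 myeloid markers and 0.32 for 20 G1/S and replication genes. A range of at least 1 was seen for 90.0%, 66.7% and 20.0% of them.

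**Figure D2:**
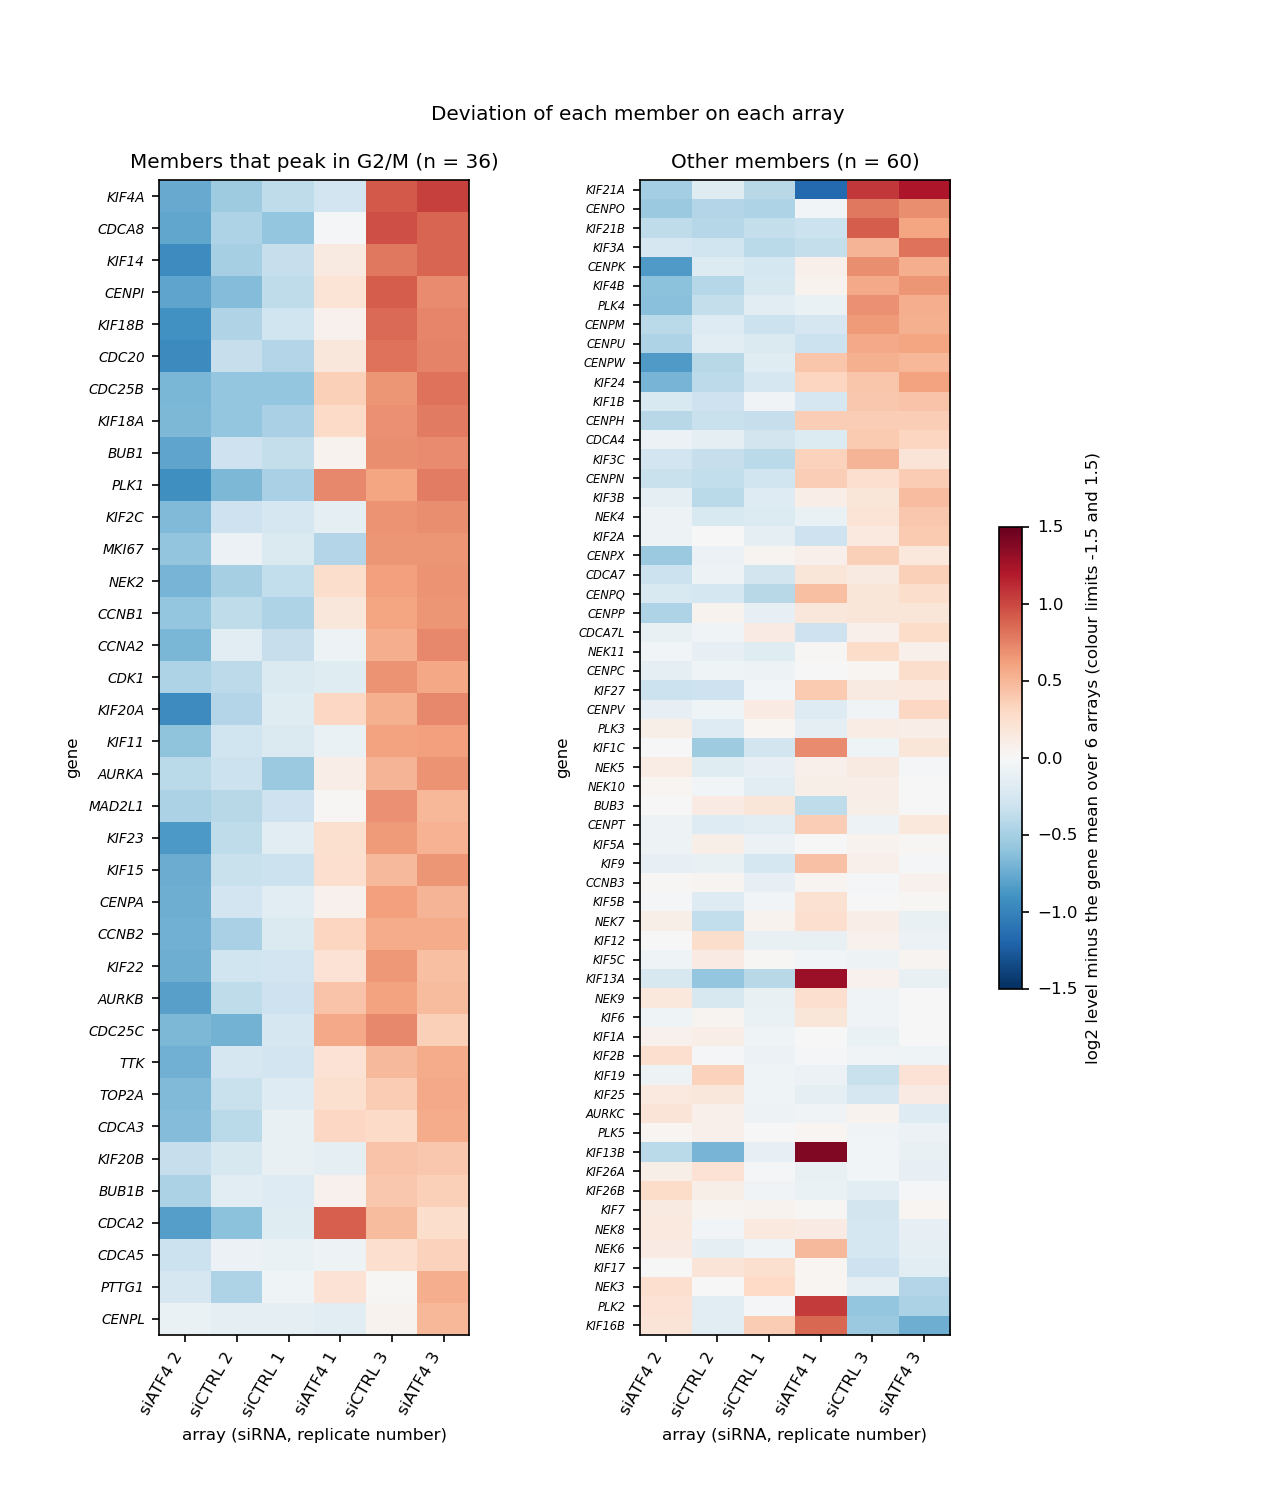
Log2 level of each member minus its mean over the 6 arrays (colour), with genes in rows and arrays in columns, for the 36 G2/M-peaking members (left) and the 60 others (right). On the left, most genes are low on siATF4 replicate 2 and high on both arrays numbered 3; on the right, KIF13A, KIF13B, PLK2 and KIF16B are high on siATF4 replicate 1.

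The arrays numbered 3 stood above the rest in these genes. For 31 of the 36 G2/M-peaking members (86.1%) both arrays numbered 3 lay above the other 4 arrays. This held for 53 of the 96 members, 16.7% of all genes and 27.8% of genes with a mean level of 5 or more. siATF4 replicate 2 was the lowest array for 32 of the 36, against 11.2% of all genes. Arrays numbered 3 exceeded those numbered 1 and 2 by a median of 0.90 in the G2/M-peaking members, by 0.43 in the G1/S genes, by 0.09 in the other members and by 0.00 in all genes. A test of the replicate numbers with siRNA in the fit was chosen after seeing the data. In limma's F test 35 of the 36, and 57 of the 96, had an unadjusted p below 0.05. So did 16.5% of all genes and 28.2% of genes with a mean level of 5 or more. The G2/M-peaking members vary together and are not independent, so the counts describe 1 shared pattern. After Benjamini-Hochberg adjustment 1 member passed, KIF4A, which carries chromosome arms and shortens the central spindle (adjusted p = 0.0356), where 0.894% of all genes did. That count depends on the arrays and settings. It was 4 with quantile normalization and 16 with a trended robust prior. Leaving out siATF4 replicate 1 gave 56 and leaving out siCTRL replicate 1 gave 62, where 15.5% and 23.9% of all genes passed. It was 0 without any 1 of the other 4 arrays or without the dimmest genes. What a number shares (a day, a batch of cells or an array run) is not stated in the labels.

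Since arrays differ so much, the sign of the siRNA difference in G2/M genes depends on which arrays are counted. Within number 1, 33 of the 36 were higher with siATF4 (median difference 0.46). Within number 2 only 3 were higher (median -0.27), and within number 3 there were 21 (median 0.02). Over all genes the same 3 counts were 7623, 7996 and 8108 of 14884. The median of 0.04 over all arrays became 0.45 without siATF4 replicate 2 and 0.36 without siCTRL replicate 3. It became -0.23 without siATF4 replicate 3, -0.13 without siCTRL replicate 2, -0.09 without siCTRL replicate 1 and 0.00 without siATF4 replicate 1. With 1 array of each siRNA per number, whether the numbers differ from each other in the siRNA difference could not be tested.

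**Figure D3:**
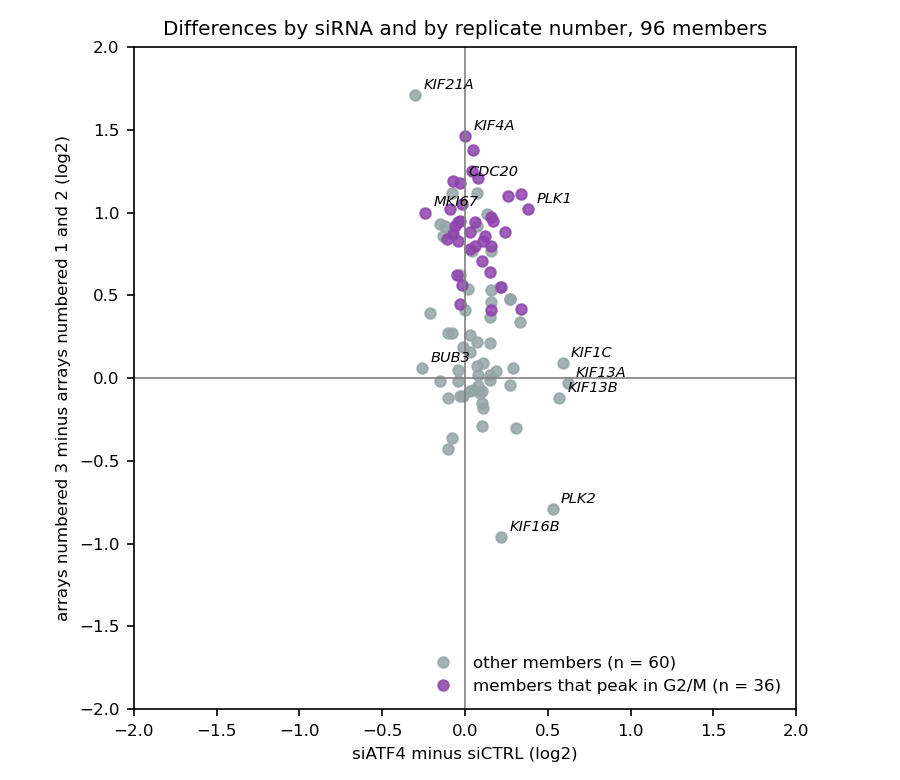
Each point is 1 of the 96 members, with the siATF4 minus siCTRL difference (x axis, log2) against arrays numbered 3 minus arrays numbered 1 and 2 (y axis, log2), on equal scales. The 36 G2/M-peaking members lie between -0.24 and 0.38 on the x axis and between 0.41 and 1.46 on the y axis.

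Among the genes for entry into mitosis, CDK1, the mitotic kinase, read 7.16, 6.87 and 7.92 under siATF4 and 7.12, 6.94 and 8.01 under siCTRL. Arrays of 1 number differed by at most 0.10 in size, and the difference was -0.04 (SE 0.36, adjusted p = 1.0 in limma). Its partner CCNB1 (cyclin B1) read 8.03, 7.27 and 8.52 against 7.39, 7.47 and 8.45, a difference of 0.17 (SE 0.40). CCNB2 (cyclin B2), whose promoter is shown above, read 7.38, 6.34 and 7.61 against 6.84, 6.57 and 7.61, a difference of 0.11 (SE 0.40). For both cyclins the arrays numbered 3 were highest and siATF4 replicate 2 was lowest. CCNA2 (cyclin A2), which acts in S phase and G2, read 9.71, 9.10 and 10.50 against 9.44, 9.62 and 10.33, a difference of -0.03 (SE 0.39). The phosphatase CDC25B read 6.66, 5.62 and 7.12 against 5.72, 5.72 and 6.96, a difference of 0.34 (SE 0.48), which was 0.01 without siATF4 replicate 3 and 0.76 without siATF4 replicate 2. Its relative CDC25C read 5.86, 4.62 and 5.65 against 5.04, 4.59 and 6.01, a difference of 0.16 (SE 0.45). CCNB3, a cyclin known mainly from meiosis, stayed between 3.47 and 3.66, below the array medians, so its transcript may not be measured above background.

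Of the 8 Aurora and Polo-like kinases, 4 (AURKA, AURKB, PLK3 and PLK4) had both arrays numbered 3 on top. For PLK3 the margin was slight, with 5.28 and 5.29 on those arrays and 5.27 on siATF4 replicate 2. Its unadjusted p in limma's F test over replicate numbers was 0.555. PLK1, the Polo-like kinase of mitotic entry and cytokinesis, read 9.89, 8.24 and 9.93 under siATF4 and 8.68, 8.49 and 9.76 under siCTRL. Its difference of 0.38 (SE 0.53) was the largest of the G2/M-peaking members. It was 1.21 within number 1, while numbers 2 and 3 gave -0.24 and 0.17. It was 0.11 without siATF4 replicate 1, 0.09 without siATF4 replicate 3 and 0.93 without siATF4 replicate 2. AURKA, the Aurora kinase of spindle poles, read 6.81, 6.30 and 7.38 against 6.15, 6.39 and 7.22, a difference of 0.24 (SE 0.36). AURKB, the Aurora kinase of the chromosomal passenger complex, read 8.23, 6.98 and 8.27 against 7.49, 7.42 and 8.40, a difference of 0.06 (SE 0.42). PLK4, which starts centriole duplication, read 7.17, 6.65 and 7.82 against 7.12, 6.92 and 7.96, a difference of -0.12 (SE 0.37). AURKC and PLK5 lay between 3.66 and 4.07 on all arrays, close to the array medians.

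PLK2 is a stress-induced Polo-like kinase outside the mitotic programme and ran the other way. It read 6.41, 5.58 and 4.89 under siATF4 and 5.33, 5.19 and 4.78 under siCTRL, lowest on both arrays numbered 3. It was higher with siATF4 within every number, by 1.08, 0.39 and 0.11, but the groups overlapped. The difference was 0.53 (SE 0.37, unadjusted p = 0.201), or with the replicate block an unadjusted p of 0.0396 and an adjusted p of 0.999 in limma. Without siATF4 replicate 1, the array with low MPO, the difference was 0.14. PLK3 lay between 4.98 and 5.29 on all arrays, a difference of 0.03.

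The spindle checkpoint genes gave differences near 0 apart from BUB3. The kinase BUB1 read 8.48, 7.63 and 9.14 under siATF4 and 8.07, 8.12 and 9.12 under siCTRL, a difference of -0.02 (SE 0.44). TTK, the kinase that recruits BUB1 to the kinetochore, gave 0.03, MAD2L1, which sequesters CDC20, gave 0.03, and BUB1B gave -0.02. BUB3 brings BUB1 and BUBR1 to the kinetochore, and its transcript is not tied to G2 and mitosis. It read 9.81, 10.18 and 10.18 under siATF4 and 10.37, 10.31 and 10.27 under siCTRL, so every siATF4 array lay below every siCTRL array. The difference was -0.26 (SE 0.13), 83.6% of the control level, with an unadjusted p of 0.0983 and an adjusted p of 1.0 in limma. A two-sided exact permutation test gave 0.1, below which no design of 3 against 3 can go. The difference was -0.13 without siATF4 replicate 1.

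Of the anaphase regulators, CDC20 read 8.76, 7.64 and 9.33 under siATF4 and 8.15, 8.25 and 9.41 under siCTRL. Its differences were 0.61, -0.61 and -0.08 within numbers 1, 2 and 3, which average to -0.03 (SE 0.50). PTTG1 encodes securin, which restrains the protease that opens sister chromatids. It read 4.43, 3.96 and 4.76 against 4.15, 3.75 and 4.23 and was higher with siATF4 within every number, by 0.27, 0.21 and 0.53. The groups overlapped, and the difference was 0.34 (SE 0.23, unadjusted p = 0.188). It was 0.15 without siATF4 replicate 3, 0.19 without siCTRL replicate 2 and 0.55 without siATF4 replicate 2. The replicate block gave an unadjusted p of 0.0307 (adjusted p = 0.999 in limma). Its level lay close to the array medians, which makes the value less certain than those of bright genes.

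Among the mitotic kinesins, 13 of 14 had both arrays numbered 3 on top. KIF11, the motor that pushes spindle poles apart, read 9.49, 8.99 and 10.21 under siATF4 and 9.37, 9.29 and 10.19 under siCTRL, a difference of -0.06 (SE 0.36). KIF20A, needed for cytokinesis, read 7.55, 6.29 and 7.96 against 7.05, 6.80 and 7.77, a difference of 0.06 (SE 0.45). KIF23 of the central spindle read 7.77, 6.66 and 8.05 against 7.36, 7.15 and 8.16, a difference of -0.07 (SE 0.41). The microtubule depolymerase KIF2C gave -0.09 (SE 0.40). KIF4A read 6.59, 6.12 and 7.90 against 6.49, 6.34 and 7.79. It had the largest gap of the G2/M-peaking members between number 3 and the others, 1.46, with a siRNA difference of 0.00 (SE 0.55). KIF4B is a near-identical retrocopy of KIF4A, so its values (difference 0.07) may come in part from KIF4A transcripts. Over all 14 the median difference was 0.00, with 8 higher and 6 lower. KIF2B was the exception in pattern and lay between 3.51 and 3.85.

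The centromere genes were a mixture. CENPA, the histone H3 variant that marks centromeres, read 6.67, 5.87 and 7.11 under siATF4 and 6.44, 6.32 and 7.22 under siCTRL, a difference of -0.11 (SE 0.36). Both arrays numbered 3 were on top for 12 of the 16 CENP genes, and the median difference was 0.06, with 9 higher and 7 lower. The lowest were CENPX at -0.21, CENPK at -0.15 and CENPU at -0.13, and the highest was CENPQ at 0.33, all subunits of the complexes that sit on CENPA chromatin. CENPQ read 7.48, 6.81 and 7.30 against 6.62, 6.77 and 7.22, and within number 1 the difference was 0.85. The difference was 0.19 without siATF4 replicate 1, 0.20 without siCTRL replicate 1 and 0.52 without siATF4 replicate 2. CENPT, which links the centromere to microtubule-binding proteins, read 5.99, 5.55 and 5.78 against 5.45, 5.43 and 5.55. It was higher with siATF4 within every number, by 0.54, 0.12 and 0.23 (difference 0.29, SE 0.14, unadjusted p = 0.0705). The difference was 0.19 without siATF4 replicate 1.

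MKI67 encodes the Ki-67 protein that coats mitotic chromosomes and serves as a marker of dividing cells. It read 9.68, 9.53 and 10.78 under siATF4 and 9.90, 10.03 and 10.78 under siCTRL, a difference of -0.24 (SE 0.38). Within the 3 numbers the difference was -0.22, -0.49 and 0.00. TOP2A, the topoisomerase that untangles sister chromatids, read 10.40, 9.50 and 10.73 against 9.97, 9.83 and 10.54, a difference of 0.10 (SE 0.34). CDCA8 (borealin, of the chromosomal passenger complex) read 7.88, 7.11 and 8.77 against 7.32, 7.43 and 8.86, a difference of 0.05 (SE 0.54). CDCA2 had a difference of 0.22 (SE 0.47), which was -0.18 without siATF4 replicate 1 and 0.69 without siATF4 replicate 2. The 7 CDCA genes had a median difference of 0.05, with 5 higher and 2 lower.

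**Figure D4:**
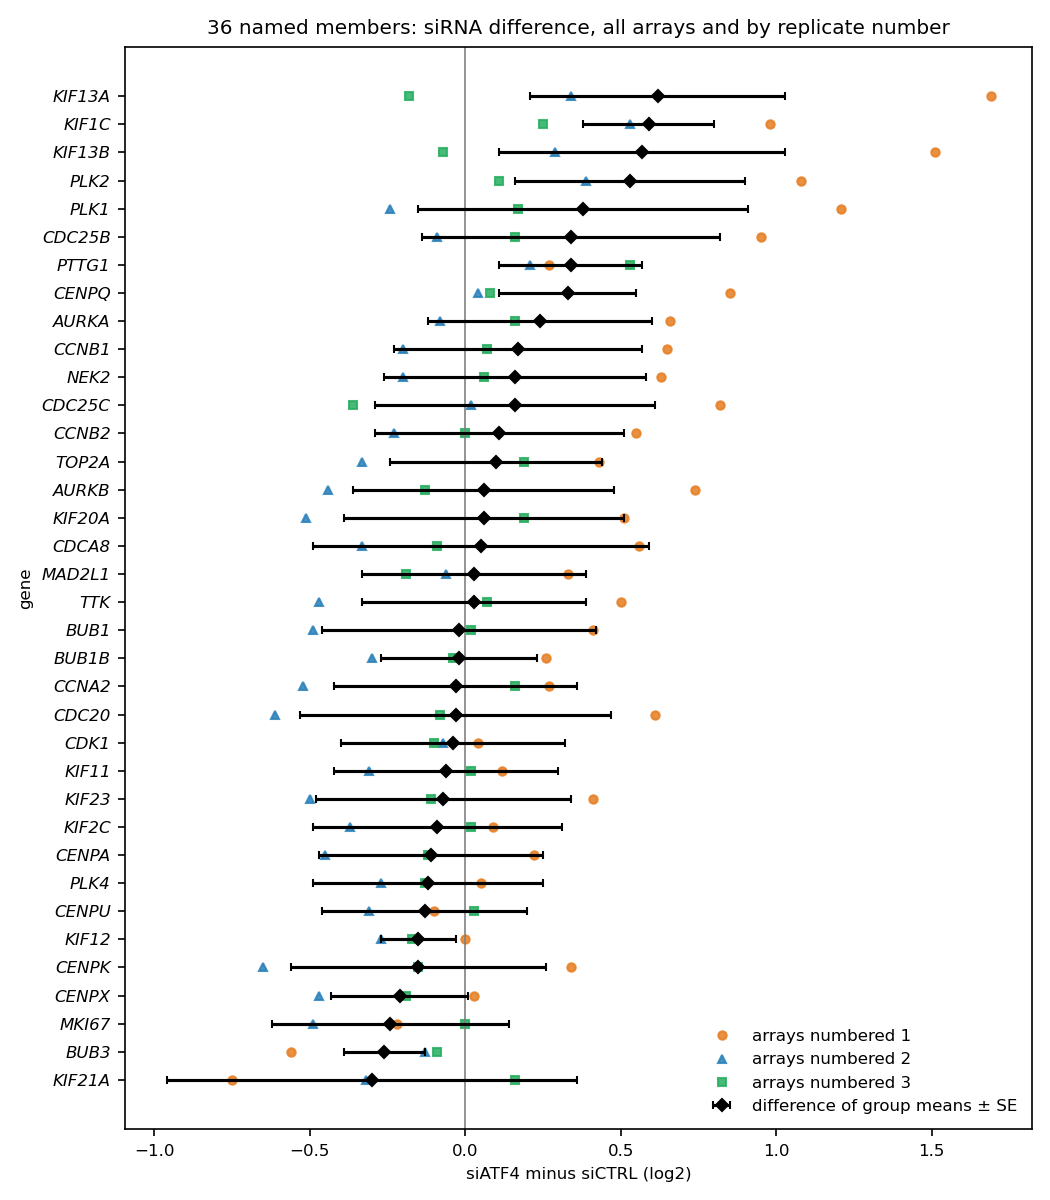
Difference siATF4 minus siCTRL (x axis, log2) for the 36 named members (y axis), as the difference of group means with its limma SE (black) and as the difference between arrays of the same replicate number (colours). Of the members shown, KIF1C, PLK2, PTTG1 and CENPQ are higher in all 3 numbers, and BUB3 and (by less than 0.01 in number 1) KIF12 are lower in all 3, while the cyclins and PLK1 have positive values in number 1 and negative ones in number 2.

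Kinesins outside mitosis held the largest siRNA differences. KIF1C carries vesicles and mRNAs towards microtubule plus ends. It read 6.53, 5.82 and 6.01 under siATF4 and 5.55, 5.29 and 5.76 under siCTRL, so the groups did not overlap. The difference was 0.59 (SE 0.21), with an unadjusted p of 0.0294 and an adjusted p of 1.0 in limma and an exact permutation p of 0.1. It was higher within every number, by 0.98, 0.53 and 0.25, and was 0.38 without siATF4 replicate 1. The replicate block gave an unadjusted p of 0.0119 (adjusted p = 0.999 in limma).

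The related vesicle motors KIF13A and KIF13B had differences of 0.62 (SE 0.41) and 0.57 (SE 0.46) that rested on siATF4 replicate 1. KIF13A read 5.74 on that array and 3.88 to 4.53 on the other 5. KIF13B read 7.17 there and 5.09 to 5.74 elsewhere. Without that array the differences were 0.13 and 0.03. KIF21A, a motor that restrains microtubule growth, had the lowest difference, -0.30 (SE 0.66). It read 3.29, 3.95 and 5.67 under siATF4 and 4.04, 4.27 and 5.51 under siCTRL, with a gap of 1.71 between number 3 and the others. The KIF21A difference was 0.20 without siATF4 replicate 1 and -0.99 without siATF4 replicate 3. KIF16B, an endosome motor, ran the other way, with 6.70, 6.03 and 5.10 against 6.22, 5.68 and 5.28. Its siRNA difference of 0.22 (SE 0.42) was -0.16 without siATF4 replicate 1 and 0.64 without siATF4 replicate 3. Over the 25 kinesins the median difference was 0.10, with 17 higher and 8 lower. Of these 7 had a mean level under 4, KIF12 (-0.15) among them, where differences are less certain. Several KIF13A and KIF21A values also lay close to or below the array medians of 3.88 to 3.96, so their differences are less certain too.

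Among the NIMA-related kinases, NEK2, which separates centrosomes at mitotic entry, read 6.44, 5.48 and 6.85 under siATF4 and 5.81, 5.68 and 6.79 under siCTRL, a difference of 0.16 (SE 0.42). NEK9 activates NEK6 and NEK7 in mitosis, but its transcript did not follow the shared pattern. It read 6.68, 6.59 and 6.42 against 6.32, 6.19 and 6.38, without overlap. The difference was 0.27 (SE 0.12, unadjusted p = 0.0590, adjusted p = 1.0 in limma), with an exact permutation p of 0.1. NEK6 read 6.97, 6.60 and 6.34 against 6.41, 6.33 and 6.22, a difference of 0.31 (SE 0.17), or 0.15 without siATF4 replicate 1. Of the 10 NEK genes 9 were higher (90.0%), where 53.8% of all genes were, with a median of 0.13. Within number 3 only 5 of the 10 were higher (median -0.04), and 3 of the 10 had a mean level under 4.

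Mitotic genes outside the symbol rule, from pathway lists, were counted in the same way. Of 81 measured, 0 passed the adjusted threshold, 47 were higher and 34 lower with siATF4, and the median difference was 0.02. At an unadjusted p below 0.05 there were 0, where 1.46% of all genes were. With the replicate block there were 5 (CDC23, CDC27, E2F7, E2F8 and MIS18A), where 3.12% of all genes were, each with an adjusted p of 0.999 in limma. Every siATF4 value lay under every siCTRL value for 2 (ANAPC7 and E2F8), where 2.59% of all genes did so, and above them for 0, where 3.3% did. Both arrays numbered 3 were on top for 15 of 18 kinetochore genes, 14 of 19 spindle and cytokinesis genes, 12 of 18 regulators, 4 of 9 condensin and cohesin genes and 5 of 17 genes of the anaphase-promoting complex. The extremes were MIS18A (-0.36) and SKA2 (0.23) among kinetochore genes, RACGAP1 (-0.19) and PBK (0.43) among spindle genes, and SMC4 (-0.25) and STAG2 (0.06) among condensin and cohesin genes. Without siCTRL replicate 3 the MIS18A difference was -0.07, and without siATF4 replicate 3 the SKA2 difference was 0.04. That of PBK was 0.17 without siATF4 replicate 1, 0.15 without siATF4 replicate 3 and 0.98 without siATF4 replicate 2. The extremes were UBE2S (-0.23) and CDC23 (0.40) for the anaphase-promoting complex and E2F8 (-0.35) and E2F7 (0.39) among regulators. E2F8 and E2F7 are related repressors of the cell cycle. E2F8 read 7.48, 7.10 and 7.70 against 7.71, 7.72 and 7.90, below siCTRL on every array. E2F7 was higher within every number, by 0.42, 0.34 and 0.40, and neither passed the adjustment (both adjusted p = 1.0 in limma).

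Among regulators of the programme, FOXM1 read 6.92, 5.92 and 7.50 under siATF4 and 6.49, 6.36 and 7.37 under siCTRL, a difference of 0.04 (SE 0.44). MYBL2 read 8.38, 8.04 and 9.32 against 8.46, 8.52 and 9.26, a difference of -0.16 (SE 0.37). Both were highest on the arrays numbered 3 and lowest on siATF4 replicate 2. CDKN1A, which encodes the inhibitor p21, was not analysed here.

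Other gene lists varied over the same arrays. The mean of 20 G1/S and replication genes was 7.37, 7.11 and 7.74 with siATF4 and 7.27, 7.34 and 7.81 with siCTRL, also highest on the arrays numbered 3. In limma's F test over replicate numbers 13 of these 20 had an unadjusted p below 0.05. So did 16.5% of all genes and 28.2% of genes with a mean level of 5 or more. The 20 measured type I interferon genes of a list of 28 had means of 4.76, 5.84 and 4.85 and of 6.59, 5.68 and 4.86, and the 3 arrays with the lowest interferon mean were the 3 with the highest G2/M mean. The 9 myeloid markers had 7.62, 7.91 and 7.33 and 8.12, 7.92 and 7.32, lowest on the arrays numbered 3. Within number 1 the G2/M mean was 0.44 higher with siATF4 and the interferon mean was lower by a difference of -1.83. Within number 2 the G2/M mean differed by -0.28 and the interferon mean by 0.16. The part that these lists have in the G2/M values was not tested.

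**Figure D5:**
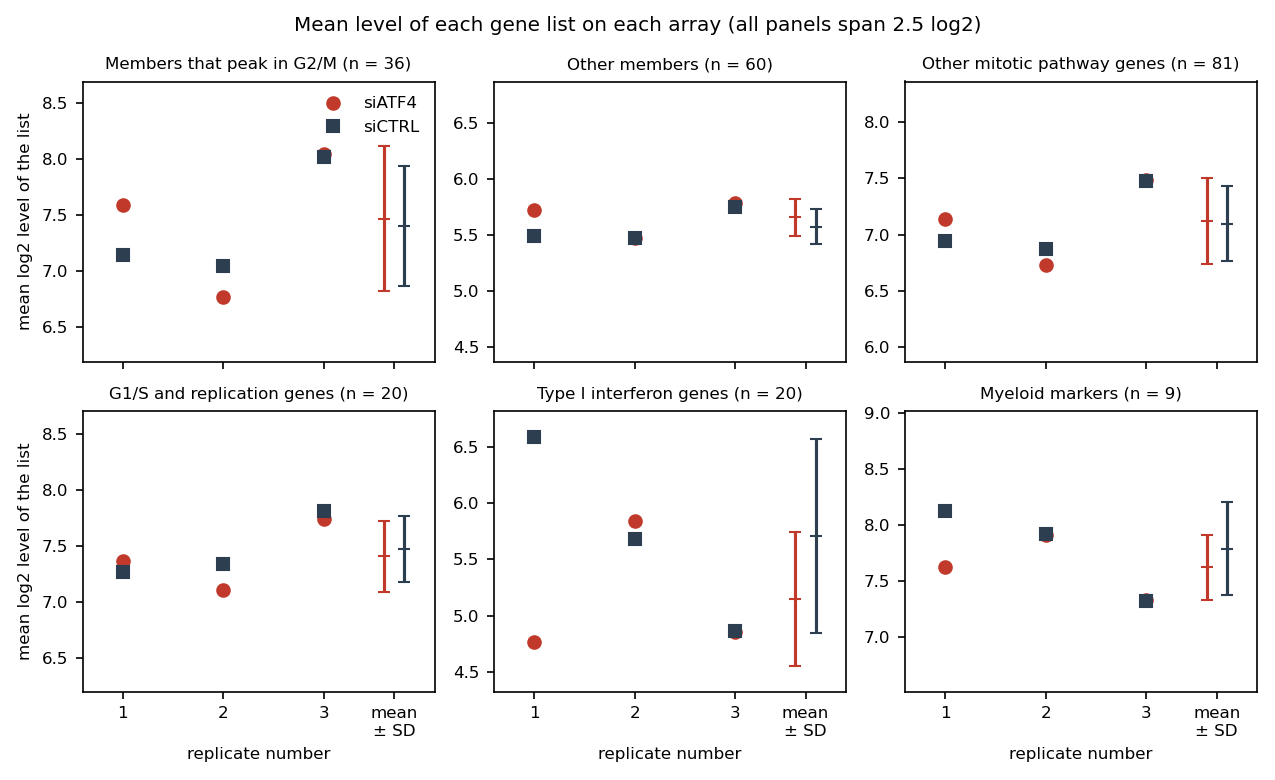
Mean log2 level of each gene list (y axis, all panels of equal span) by replicate number (x axis) for siATF4 (circles) and siCTRL (squares), with the mean ± SD of each group at the right. The G2/M-peaking members reach 8.05 and 8.02 on the arrays numbered 3, where the interferon genes are at 4.85 and 4.86.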

How the data were processed

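From each sample 100 ng of total RNA was made into biotinylated target with an Affymetrix kit, per the labels' protocols. The authors' deposited values, 1 for each of 53617 features and 6 samples, were read as log2 (range 1.91 to 14.24). The submitters' processing notes name Partek. Its version, the normalization and the log base are not given in the sources used here, and no measure of background was used, so dim genes are less certain. Features were named from the array annotation: 16098 had 1 symbol, 0 had several and 37519 had none. All 16098 identifiers matched the GRCh38.p14 gene table. It was used for names, for the protein-coding class and to list the genes that fit the symbols. The brightest feature stood for each of 779 genes with several, 2 of them members.

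All 14884 genes were fitted with limma 3.58.1 in R 4.3.3 (group as the only term, lmFit and eBayes, Benjamini-Hochberg over all genes, threshold 0.05). SE is limma's moderated standard error. On simulated data with 200 of 14884 genes changed between siATF4 and siCTRL, a true change of 1 log2 was recovered for 45.2% and one of 2 log2 for 83.2%, with 6.25 false calls on average. The changed genes were drawn from all genes above the median level, with noise independent between genes and arrays. The G2/M-peaking members had a median SE of 0.40, against 0.15 for all genes, so these rates do not apply to them. Recovery among the members was not simulated. Deviations from the group means correlated between arrays of the same number (r = 0.20, 0.40 and 0.62 for numbers 1, 2 and 3, across genes), so the numbers were taken as pairs from the data and a fit with them as a block was added. siATF4 replicate 2 correlated with siCTRL replicate 1 at 0.48, so the pairing is not exclusive.

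The members and lists were chosen with earlier results of these data known. Named genes were a fixed set of mitotic regulators, the 8 highest and 8 lowest members, members without overlap at an unadjusted p below 0.05, the extremes of each pathway list, ATF4, FOXM1 and MYBL2; any other gene (CENPT, NEK6, NEK9, KIF4A and KIF16B among them) was named after its values were seen. Alternatives were quantile normalization, the replicate block, a filter that kept the 9922 brightest genes, the mean of all features, a trended robust prior, each array left out, and a promoter window of 100 bases. The F test over replicate numbers was added after seeing the data.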

Additional observations from a re-analysis of the deposited data

How the results depend on the processing

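The count of members past the adjusted threshold between siRNAs was 0 under every alternative run. At an unadjusted p below 0.05 the count of 1 became 4 with the replicate block and lay between 0 and 4 when single arrays were dropped, and the block changed no call after adjustment. Members without overlap were 4 higher with quantile normalization, and when single arrays were dropped they numbered 2 to 12 higher and from 1 to 6 lower, where fewer arrays make separation easier. The F test over replicate numbers passed 4 members with quantile normalization, 0 without the dimmest genes, 16 with the trended robust prior and 0 to 62 with each array left out; at an unadjusted p below 0.05 it passed 37 to 69. In 100-base windows CCAAT was found in 59.5% of windows of G2/M-peaking members, 26.5% of windows of other members and 18.1% of all windows. In the same order, CHR was found in 33.3%, 1.47% and 4.61%, and the ATF4 core in 0.0%, 0.0% and 1.34%. A shorter window holds fewer matches by construction.

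Of 49 named genes, 18 kept their sign under all alternatives and 31 did not, 26 of them members. Only MAD2L1 turned outside the fits that left out an array, to 0.00 with quantile normalization. With each array left out the log2 differences of those 31 ranged as follows: CDK1 (-0.34 to 0.29), CCNB1 (-0.12 to 0.52), CCNB2 (-0.14 to 0.49), CCNA2 (-0.39 to 0.31), CDC25C (-0.15 to 0.56), CDC20 (-0.41 to 0.44), AURKA (-0.03 to 0.56), AURKB (-0.17 to 0.48), BUB1 (-0.38 to 0.37), BUB1B (-0.21 to 0.20), TTK (-0.24 to 0.40), MAD2L1 (-0.21 to 0.38), KIF11 (-0.38 to 0.23), KIF20A (-0.28 to 0.55), KIF23 (-0.35 to 0.35), KIF2C (-0.45 to 0.23), CENPA (-0.39 to 0.22), NEK2 (-0.14 to 0.55), CDCA8 (-0.38 to 0.54), TOP2A (-0.16 to 0.45), MKI67 (-0.63 to 0.04), KIF21A (-0.99 to 0.20), CENPX (-0.34 to 0.02), CENPK (-0.46 to 0.24), CENPU (-0.45 to 0.12), PLK4 (-0.42 to 0.20), RACGAP1 (-0.34 to 0.08), SMC4 (-0.42 to 0.02), UBE2S (-0.47 to 0.13), FOXM1 (-0.32 to 0.47) and MYBL2 (-0.54 to 0.11). Those that kept their sign ranged too: CDC25B (0.01 to 0.76), PTTG1 (0.15 to 0.55), PLK1 (0.09 to 0.93), BUB3 (-0.32 to -0.13), KIF12 (-0.24 to -0.06), KIF13A (0.13 to 0.89), KIF1C (0.38 to 0.74), KIF13B (0.03 to 0.92), PLK2 (0.14 to 0.89), CENPQ (0.19 to 0.52), MIS18A (-0.58 to -0.07), SKA2 (0.04 to 0.39), PBK (0.15 to 0.98), STAG2 (0.01 to 0.10), CDC23 (0.27 to 0.58), E2F8 (-0.49 to -0.19), E2F7 (0.18 to 0.58) and ATF4 (-0.91 to -0.71). The cause was not tested. Signal over background is unknown, so the 14 members with a mean level under 4 carry the least certain differences.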
